A study of Homo sapiens with 8 samples.

Results

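The DNA replication and S phase genes described here were 41 genes chosen by symbol, of 58440 genes in the count table. They were the 6 subunits of the replicative helicase (MCM2 to MCM7), 8 genes of helicase loading and activation, 6 of the sliding clamp and its loader, 6 of the replicative polymerases and primase, 5 of nucleotide supply, 6 of the cyclin E and E2F axis, and 4 of strand maturation and chromatin assembly. All 41 were found in the table and all 41 passed the filter on low counts, with between 30 and 5534 counts per gene and column.

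In the cell cycle, E2F transcription factors drive a shared set of genes as cells pass from G1 into S phase. ORC, CDC6 and CDT1 load the MCM helicase on origins in G1. Cyclin E with CDK2, CDC45 and the GINS complex then start it. PCNA, placed on DNA by replication factor C (RFC), holds the polymerases in place, while ribonucleotide reductase and thymidylate enzymes supply the nucleotides. HEK293 cells carry adenoviral E1A, a protein known to release E2F from the retinoblastoma protein.

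The series measured polyA RNA in HEK293, a human embryonic kidney cell line. Its 8 samples were 4 groups of 2: HEK293 stably overexpressing HTR1E, the 5-HT1E receptor for serotonin, which signals through Gi proteins, and control HEK293, each without ligand or with serotonin. All cells were starved of serum for 3 h, and the treated ones then received 1 µM serotonin for 1 h. The labels name no promoter for the receptor transgene and do not say whether the overexpressing line is 1 clone or a pool. They also do not say whether the 2 samples of a group came from separate cultures, so the p-values below measure only the spread between these samples, which may be technical.

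The 8 columns of counts carry the word Control (no ligand) or Serotonin, then the letter A or B, with or without an R at the end of the name, which is written here as (R). The treatment word matches the labels. Neither the labels nor the column names say which letter marks which cell line or what R stands for, so the columns are called by their names below. HTR1E had 1643 counts in Control_A, 1836 in Control_A (R), 1783 in Serotonin_A and 1353 in Serotonin_A (R). It had 0 counts in Control_B and in Control_B (R), 2 in Serotonin_B and 3 in Serotonin_B (R). In CPM (counts relative to the library total after scaling by the trimmed mean of M values, used throughout), the A columns had 175 to 226 and the B columns 0 to 0.503. The receptor transcript was therefore abundant in every A column and nearly missing from every B column. No column was placed in a cell line by these counts. Every comparison of A with B below is a comparison of columns by the letter in their name.

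The 8 columns differed in depth and quality. They held 2604885 to 9072278 counts. Control_B stood apart: it had the fewest counts, 54.4% of them mitochondrial, and its correlation with the other column of its letter and treatment was 0.895, against 0.959 to 0.985 in the other 3 pairs. Mitochondrial transcripts took 36.3% in Serotonin_B (R) and 17.9 to 24.6% in the other 6 columns. Of the HEK293 markers, VIM (300 to 456 CPM), IGF2BP1 (85.6 to 346 CPM), LIN28B, NEFL and PAX2 were detected in every column, though PAX2 reached only 1.82 to 21.6 CPM. The leukocyte gene PTPRC had 0 counts in every column, the endothelial genes PECAM1 and CDH5 at most 3 and 1 counts, and the hepatocyte gene ALB at most 6. The fibroblast collagen COL1A1 had 12.1 to 43.9 CPM.

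Apart from the RNA values, the promoters of these genes were searched for short sequence words, which some of them had and most lacked. RefSeq promoter sequences (GRCh38.p14) were matched for 37 of the 41 genes. The 250 bases before each start site were searched on both strands, with overlapping matches counted, for 4 E2F-type words: TTTCCCGC, TTTCGCGC, TTTGCCGC and TTTGGCGC. At least 1 word stood in 15 of the 37 promoters (40.5%), against 761 of 27305 RefSeq promoters (2.79%). The share was 6 of 33 (18.2%) in other replication genes and 1 of 16 (6.25%) in mitotic genes. Promoters of the 41 genes were also richer in G and C, with a median of 68.0% against 58.0% over all promoters, and all 4 words hold G and C in most positions. A match describes the letters and is not evidence that a factor binds. The windows around the word nearest the start site are shown for 7 genes of 4 roles, as examples. A word also stood in promoters of other roles, such as those of CDT1, GINS2, TYMS and LIG1. Other genes of the 4 roles, such as RFC1 and POLD1, had none. The windows are written 5′ to 3′ on the strand of the gene, with the word in capitals.
MCM6, 4 words, chr2:135876502-135876549, minus strand: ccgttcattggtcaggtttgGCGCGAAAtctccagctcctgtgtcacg
MCM7, 2 words, chr7:100101398-100101426, minus strand: cggtcacgtggggggcgacgTTTCGCGCc
PCNA, 1 word, chr20:5126654-5126701, minus strand: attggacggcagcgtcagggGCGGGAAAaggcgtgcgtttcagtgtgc
POLE, 1 word, chr12:132687343-132687380, minus strand: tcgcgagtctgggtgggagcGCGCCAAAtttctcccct
POLA1, 1 word, chrX:24693761-24693808, plus strand: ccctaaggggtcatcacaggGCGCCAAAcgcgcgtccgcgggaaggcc
E2F1, 2 words, chr20:33686386-33686425, minus strand: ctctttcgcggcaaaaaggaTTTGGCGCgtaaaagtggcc
E2F2, 1 word, chr1:23531248-23531295, minus strand: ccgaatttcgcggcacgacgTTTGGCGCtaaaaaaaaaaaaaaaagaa
The windows share the core but not its strand. The word marked in capitals reads forward in MCM7, E2F1 and E2F2 and in reverse complement in MCM6, PCNA, POLE and POLA1. The windows of MCM6 and E2F1 also hold another of the words on the opposite strand, not marked as such. The bases between the word and the start site number 1 in MCM7, 10 in POLE, 12 in E2F1, 34 in E2F2, 51 in PCNA, 78 in MCM6 and 129 in POLA1. The genes named below for their RNA values include some with no such word in the window, such as CCNE1.

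Levels were compared between genes per kilobase of exon. PCNA, the clamp, was the most abundant of the 41, with a median over the 8 columns of 99.1 CPM per kilobase, at percentile 98.9 of all 17144 genes tested. MCM7 followed at 95.1 and MCM3 at 55.3 CPM per kilobase. E2F1 (47.1), the thymidylate synthase gene TYMS (45.4) and the thymidine kinase gene TK1 (41.5) came next on this scale. The lowest were GINS4 (4.50), GINS3 (3.41) and CCNE2 (2.64 CPM per kilobase, percentile 41.8). The helicase was not evenly expressed on this scale: MCM6, its lowest subunit, had a median of 21.2 CPM per kilobase and a range over the columns that did not reach that of MCM7 (14.7 to 25.5 against 65.1 to 139).

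None of these 41 genes passed the test in any comparison of A with B or of serotonin with no ligand. With edgeR's quasi-likelihood test and Benjamini-Hochberg adjustment over all 17144 genes, 0 of 41 differed between the A and B columns averaged over treatments, where 9.36% of all genes did (5.27% higher and 4.09% lower in A). Within the no-ligand columns the count was also 0 of 41, against 2.42% of all genes. Within the serotonin columns it was 0 of 41, against 5.25% (2.33% higher and 2.92% lower in A). At an unadjusted p under 0.05, 8 of the 41 were reached in the averaged comparison, 4 without ligand and 8 with serotonin, of 4369, 3292 and 4164 genes in all. DESeq2 called 1, 0 and 3 of the 41 in the same order, against 9.32%, 4.66% and 9.57% of all genes. The median log2 difference of the 41 genes, A minus B averaged over treatments, was -0.11, beside 0.00 for all genes. Of the 41 values, 12 were above 0. Without Control_B (R) the median was 0.07, beside 0.10 for all genes, so its sign changed with that column. It lay below the median of all genes in both fits. Without Control_B (R), the only no-ligand B column left was Control_B, which stood apart in depth and mitochondrial share. With all columns, the 95% interval of the averaged A minus B difference lay within 1 log2 unit of 0 for 37 of the 41 genes. For these, a larger difference lay outside the interval. In bulk RNA, fewer cells in S phase and less RNA per cell cannot be told apart.

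**Figure D1:**
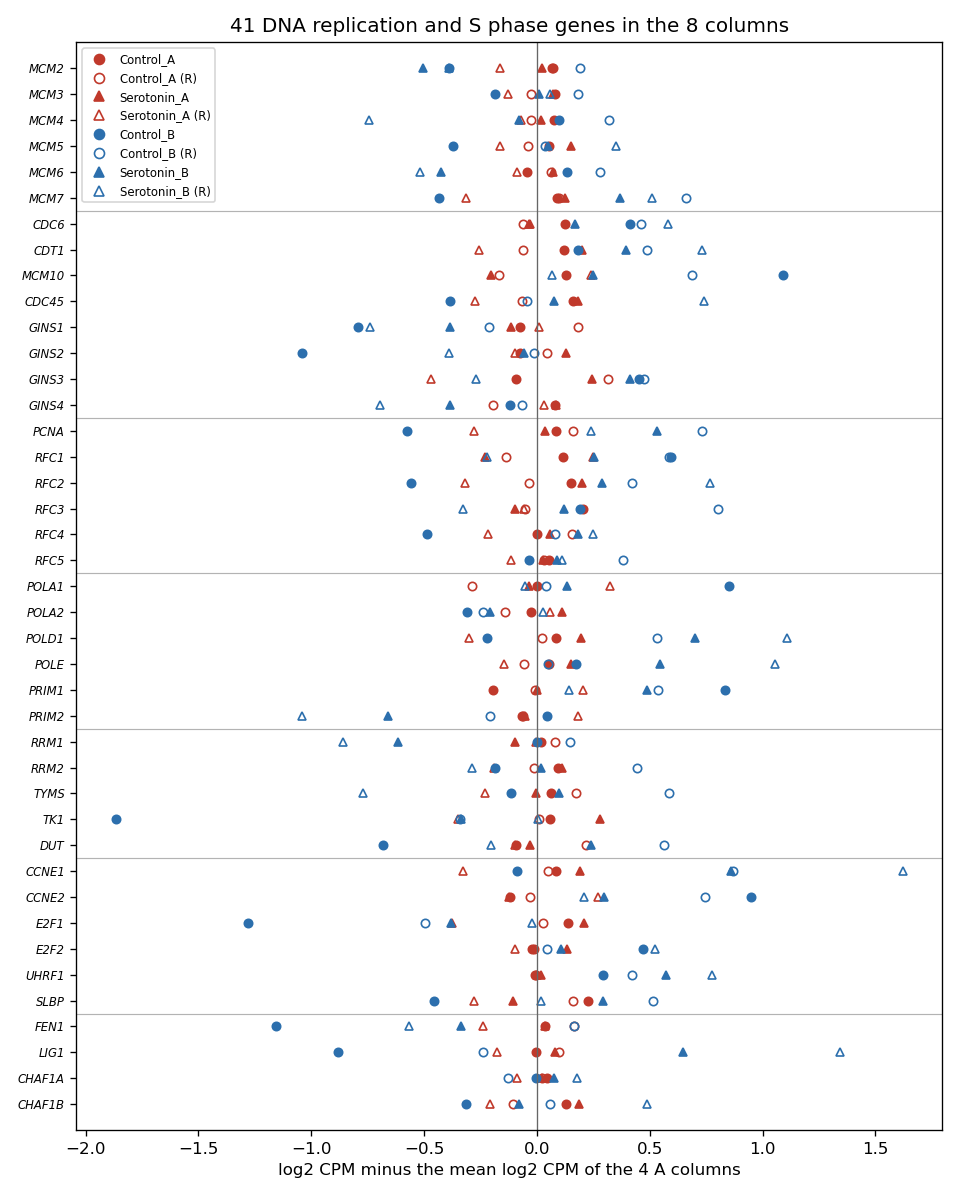
Each row is a gene and each symbol a column of the table. The x axis is the log2 CPM minus the mean log2 CPM of the 4 A columns, and grey lines separate the roles. The red A symbols lie close together, and the blue B symbols are spread more widely around them, with Control_B (filled blue circle) often at an end.

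The helicase subunits MCM2 to MCM7 form the ring that unwinds DNA ahead of the fork. MCM7 had 411 CPM in Control_A, 413 in Control_A (R), 421 in Serotonin_A and 310.2 in Serotonin_A (R). In the B columns it had 286 CPM in Control_B, 609 in Control_B (R), 497 in Serotonin_B and 549 in Serotonin_B (R). Of the B columns, Control_B lay below all 4 A columns and the other 3 lay above them. The log2 difference A minus B was -0.32 (SE 0.27, 95% interval -0.92 to 0.28, adjusted p = 0.505), and without Control_B (R) it was 0.027. MCM3 was the steadiest subunit between the letters. It had 209, 194, 207 and 181 CPM in the A columns, in the order given for MCM7. In the B columns it had 173, 223, 199 and 205 CPM, and its difference was -0.02 (SE 0.20).
MCM6 separated the treatments within the B columns, as did MCM4 and, in the other direction, MCM5. Such a separation is frequent by chance with 2 columns against 2, and its share over all genes was not counted. MCM6 had 95.02 CPM in Control_B and 105 in Control_B (R), against 64.4 in Serotonin_B and 60.5 in Serotonin_B (R). The A columns lay between these, at 81.4 to 90.9 CPM. The log2 difference of serotonin against no ligand was -0.68 (SE 0.26, 95% interval -1.25 to -0.12) in the B columns and -0.02 in the A columns, and the first did not pass (adjusted p = 0.132). MCM2, MCM4 and MCM5 overlapped between the letters: MCM4, for example, had 169.9 to 188 CPM in A and 106 to 223 in B.

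The loading and activation genes held 2 of the 3 members whose A and B columns did not overlap in CPM. CDC6, the ATPase that brings MCM to the origin, had 69.3, 61.05, 62.2 and 62.3 CPM in the A columns. In the B columns it had 84.7, 87.6, 71.4 and 95.3 CPM. All 4 A columns lay below all 4 B columns, and the log2 difference was -0.41 (SE 0.19, adjusted p = 0.197). GINS1, a subunit of the GINS complex that rides with the helicase, was the reverse. It had 35.0, 41.85, 34.1 and 37.1 CPM in A, and 21.3, 31.8, 28.2 and 22.1 CPM in B. Its difference was 0.50 (SE 0.20, 95% interval 0.06 to 0.93, adjusted p = 0.144).
Over the 41 genes, 2 (4.88%, CDC6 and UHRF1) had all A columns below all B columns, against 7.62% of all genes tested. Only GINS1 (2.44%) had all A columns above all B columns, against 9.96% of all genes. Both shares were below those of the background, but they rested on 2 genes and 1 gene, and the gap was not tested.
MCM10, which helps to activate the loaded helicase, had 34.3, 27.96, 27.25 and 37.1 CPM in A and 66.8, 50.5, 37.25 and 32.8 CPM in B. Its no-ligand B columns were the high ones. The difference A minus B was -0.90 (SE 0.28, adjusted p = 0.121) without ligand and -0.51 (SE 0.20, adjusted p = 0.128) averaged over treatments. CDC45, the helicase cofactor, had the smallest difference of this role, -0.11 (SE 0.22), with 56.0 to 76.8 CPM in A and 51.8 to 113 in B. CDT1, the partner of CDC6 in loading, had 98.2 to 135 CPM in A and 133 to 195 in B. GINS2, GINS3 and GINS4 overlapped between the letters, and GINS2 was lowest in Control_B (17.3 CPM, against 33.7 to 36.7 in the other no-ligand columns).

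The clamp and its loader had a negative A minus B difference in 6 of 6 genes, with a median of -0.26. The range was -0.31 to -0.03, and none passed. Of all 17144 genes tested, 8602 had a positive difference. The shared sign did not hold without Control_B (R), where PCNA was at 0.12. PCNA, the clamp, had 142, 149.7, 137 and 110.4 CPM in the A columns. In the B columns it had 89.8 CPM in Control_B, 222 in Control_B (R), 194 in Serotonin_B and 158 in Serotonin_B (R). Control_B was thus the lowest of the 8 columns, and the other 3 B columns were the highest. The log2 difference was -0.31 (SE 0.27, 95% interval -0.91 to 0.29, adjusted p = 0.521). It was -0.59 without Control_B (adjusted p = 0.0413) and 0.12 without Control_B (R), so its direction rested on a single column. RFC4, a subunit of the loader, had 51.6, 57.5, 53.8 and 44.4 CPM in A and 36.9, 54.6, 58.6 and 61.3 in B, a difference of -0.03 (SE 0.19). RFC1, RFC2, RFC3 and RFC5 overlapped between the letters, and RFC2 was again lowest in Control_B, at 39.2 CPM.

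Of the 6 polymerase and primase genes, 4 had a negative A minus B difference, and none passed. POLD1, the catalytic subunit of lagging-strand polymerase delta, had 129, 123, 139 and 98.6 CPM in A. In B it had 104 CPM in Control_B, 176 in Control_B (R), 197 in Serotonin_B and 261.5 in Serotonin_B (R). The serotonin B columns were the high ones. The difference A minus B was -0.55 (SE 0.24, 95% interval -1.08 to -0.03, adjusted p = 0.173). It was -0.75 without Control_B, where it passed (adjusted p = 0.0164), and -0.32 without Control_B (R). POLE, the leading-strand polymerase epsilon, had 254 to 311 CPM in A. It had 317 CPM in Control_B, 290.4 in Control_B (R), 409 in Serotonin_B and 584 in Serotonin_B (R). With serotonin its difference A minus B was -0.81 (SE 0.32, adjusted p = 0.150).
PRIM2, the large subunit of primase, was lower in the serotonin columns of B. It had 31.1, 30.9, 31.2 and 36.75 CPM in A, and 33.4, 28.1, 20.5 and 15.75 CPM in B. Both serotonin B columns lay below every other column. The difference A minus B with serotonin was 0.90 (SE 0.26, 95% interval 0.33 to 1.47, adjusted p = 0.0677). PRIM1, the catalytic primase subunit, had 8.755 to 11.5 CPM in A and 11.1 to 17.85 in B, a difference of -0.49 (SE 0.21, adjusted p = 0.167). POLA2, a subunit of polymerase alpha, had the smallest difference of this role, 0.18 (SE 0.17), with 49.1 to 58.7 CPM in A and 43.8 to 55.3 in B. POLA1, the catalytic subunit of polymerase alpha, was highest in Control_B, at 172 CPM, against 77.9 to 119 in the other 7 columns.

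Of the nucleotide supply genes, TK1, the salvage kinase for thymidine, had the largest difference. It had 89.6, 86.75, 105 and 67.5 CPM in A, and 23.6, 68.0, 68.3 and 86.3 CPM in B. Control_B was far below the other 7 columns. The difference A minus B was 0.52 (SE 0.29, 95% interval -0.12 to 1.17, adjusted p = 0.289). It was 0.23 without Control_B and 1.05 without Control_B (R), where it passed (adjusted p = 0.00380). TYMS, which makes thymidylate, had 93.7 to 124 CPM in A and 64.5 to 165 in B, a difference of -0.00 (SE 0.25). RRM1, the large subunit of ribonucleotide reductase, separated the treatments within B, as TK1 did in the other direction. RRM1 had 80.9, 84.7, 74.8 and 79.9 CPM in A, and 80.05, 88.6, 52.3 and 44.1 CPM in B. The serotonin difference within B was -0.81 (SE 0.26, adjusted p = 0.0985), and within A it was -0.10 (SE 0.25). RRM2, the small subunit, and DUT, which clears dUTP, overlapped between letters and treatments.

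The cyclin E and E2F genes held the member closest to the threshold between the letters. CCNE1 (cyclin E1, chr19:29811898-29824308 in hg38, plus strand), the CDK2 partner that triggers S phase entry, had 42.9 CPM in Control_A, 41.85 in Control_A (R), 46.1 in Serotonin_A and 32.2 in Serotonin_A (R). In B it had 38.0 CPM in Control_B, 73.7 in Control_B (R), 73.3 in Serotonin_B and 124 in Serotonin_B (R). In 3 of the 4 B columns it stood above all A columns, while Control_B lay among them. The log2 difference A minus B was -0.88 (SE 0.26, 95% interval -1.45 to -0.31, adjusted p = 0.0570), and with serotonin alone it was -1.33 (SE 0.37, adjusted p = 0.0591).
This value sat on the threshold: of 15 alternatives, 8 called CCNE1 and 7 did not. It was called lower in A under DESeq2 (adjusted p = 0.0237) and upper quartile scaling (adjusted p = 0.0464). It was also called with no filter (adjusted p = 0.0137) and without Control_B and Serotonin_B (R) (-0.86, adjusted p = 0.000246). It was not called in 6 of the 8 fits that each left out a column, with adjusted p from 0.0930 to 0.236, nor with the replicate block by the R suffix (adjusted p = 0.0821). Leaving out a single column gave values from -1.10 (without Control_B) to -0.56 (without Control_B (R)).
UHRF1, which recruits the maintenance DNA methyltransferase to new DNA, was the steadiest member in the A columns. It had 83.1, 82.7, 84.2 and 83.2 CPM there, a highest-to-lowest ratio of 1.02. In B it had 102, 111, 124 and 143 CPM, all above every A column, and the difference was -0.52 (SE 0.18, 95% interval -0.92 to -0.11, adjusted p = 0.105). CCNE2 (cyclin E2) had 9.04 to 11.9 CPM in A and 11.4 to 19.0 in B, with the no-ligand B columns highest. E2F1, an activating E2F, was the exception to the sign of this role: it had 103 to 155.5 CPM in A, and 55.3, 95.3, 103 and 132 CPM in B. Its difference was 0.52 (SE 0.24, adjusted p = 0.201). SLBP, which binds the stem-loop of histone mRNAs, had the smallest difference of this role, -0.15 (SE 0.22), with 37.8 to 53.7 CPM in A and 33.4 to 65.6 in B. E2F2, the other activating E2F measured, had 38.4 to 45.1 CPM in A and 42.4 to 59.1 in B.

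Of the maturation genes, FEN1, the flap nuclease of Okazaki fragments, had 69.8, 76.3, 69.9 and 57.6 CPM in A. In B it had 30.5, 76.2, 53.85 and 45.9 CPM, lowest in Control_B. Its difference A minus B was 0.38 (SE 0.26, adjusted p = 0.385). It was 0.11 without Control_B and 0.83 without Control_B (R), where it passed (adjusted p = 0.00818). CHAF1A, the large subunit of the histone chaperone CAF-1, varied little over the columns. It had 142 to 156 CPM in A and 139 to 171 in B, a difference of -0.03 (SE 0.19). CHAF1B, its partner, had 64.5 to 84.7 CPM in A and 59.9 to 104 in B.

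**Figure D2:**
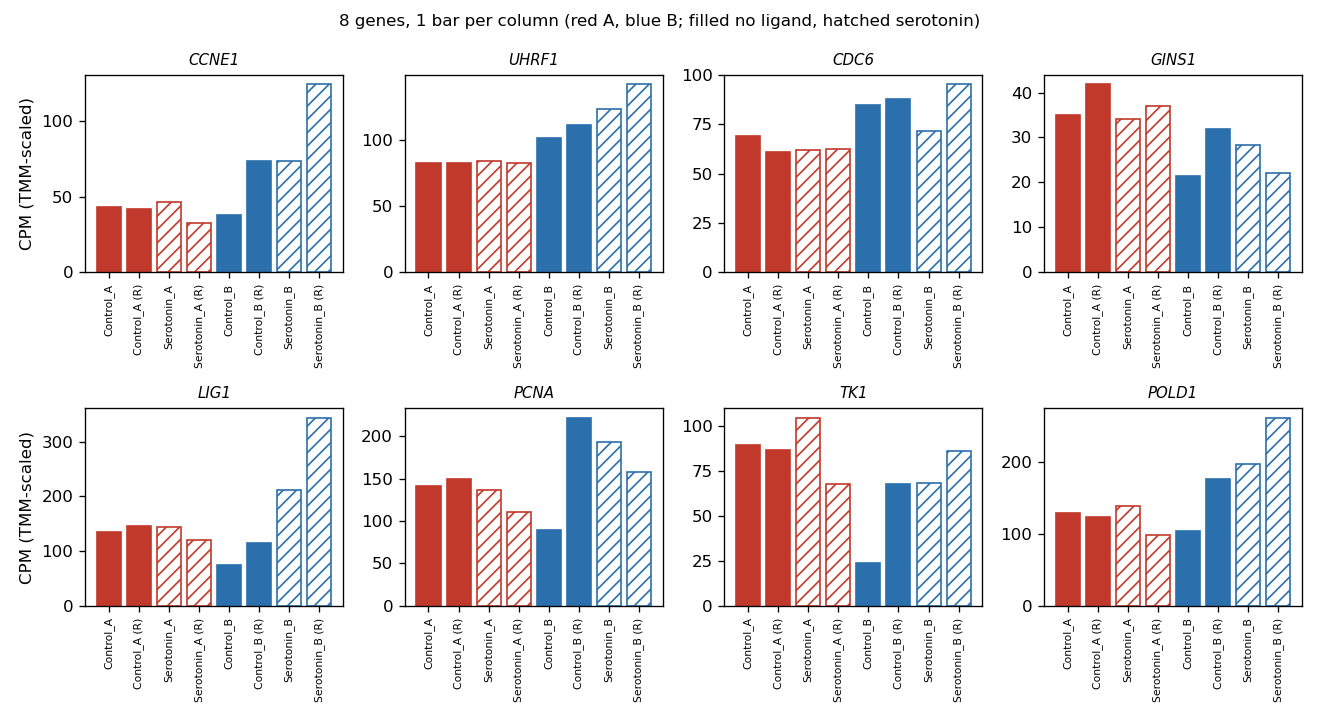
Bars give CPM in each column for 8 genes: red is A, blue is B, filled bars are no ligand and hatched bars serotonin. CCNE1 and UHRF1 are higher in most or all B columns, GINS1 is higher in all A columns, and TK1 and LIG1 are lowest in Control_B.

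Serotonin did not give a call for any replication gene. Averaged over both letters, 0 of 41 passed, where 0.00583% of all genes did, a single gene. Of all genes, 1910 reached an unadjusted p under 0.05, and of the 41 genes 2 did, LIG1 and RRM1. Within the A columns 0 of 41 passed and 0% of all genes, with 62 genes and 0 of the 41 at an unadjusted p under 0.05. DESeq2 also called 0 of the 41 in both comparisons, and 0 genes of the table within the A columns. The log2 differences of the 41 genes within A ran from -0.38 (SLBP) to 0.29 (POLA1), with a median of -0.07. The 95% interval lay within 1 log2 unit of 0 for 37 of them. All genes together had a median difference of -0.02. The fit took 1 spread per gene from all columns together. Over the columns of a letter, the median SD of log2 CPM of the 41 genes was 0.15 in A and 0.41 in B. The intervals within A may therefore be too wide, and those within B too narrow.
Within the B columns 0 of 41 passed, where 0.0117% of all genes did (2 genes), and 6 of the 41 reached an unadjusted p under 0.05, of 4542 in all. DESeq2 called 1, LIG1, against 9.68% of all genes. The differences within B ran from -0.81 (RRM1) to 1.55 (LIG1), with a median of 0.02, and the interval stayed within 1 log2 unit of 0 for only 16 genes.

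LIG1 (DNA ligase I, chr19:48115445-48170603 in hg38, minus strand), which seals Okazaki fragments, had the largest serotonin difference. In the A columns it had 135 and 145 CPM without ligand, and 144 and 120.1 CPM with serotonin. In the B columns it had 73.7 CPM in Control_B, 115 in Control_B (R), 213 in Serotonin_B and 344 in Serotonin_B (R). Within B the treatments did not overlap, which is frequent by chance with 2 columns against 2. The 2 no-ligand columns of B lay below every A column. The log2 difference of serotonin against no ligand was 1.55 in B (SE 0.35, 95% interval 0.79 to 2.31, adjusted p = 0.0655) and -0.09 in A (SE 0.34). The difference between those differences was -1.64 (SE 0.48, adjusted p = 0.302), so the responses of the letters were not shown to differ.
The B value passed in 5 of 15 alternatives, among them DESeq2 (1.58, adjusted p = 0.000861) and no filter (adjusted p = 0.00230). It was 0.87 (adjusted p = 0.156) without Control_B and Serotonin_B (R), and 1.15 (adjusted p = 0.100) after the trend with GC content was taken out. Over all 41 genes, 0 passed the test of the difference between the letters' responses, as did 0% of all genes, and 2 reached an unadjusted p under 0.05 (LIG1 and PRIM2), of 2564 genes. DESeq2 called 0 of the 41 and 70 genes in all in that comparison.
The genes that did pass were immediate early genes. NR4A1, an orphan nuclear receptor induced within an hour by many stimuli, had 13.6 and 11.5 CPM in the no-ligand A columns and 24.3 and 18.0 with serotonin. It had 16.1 and 15.5 CPM in the no-ligand B columns and 87.7 and 104 with serotonin, a log2 difference of 2.61 within B (SE 0.28, adjusted p = 0.0205). NR4A2, its relative, had a difference of 2.71 within B (adjusted p = 0.0205).

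**Figure D3:**
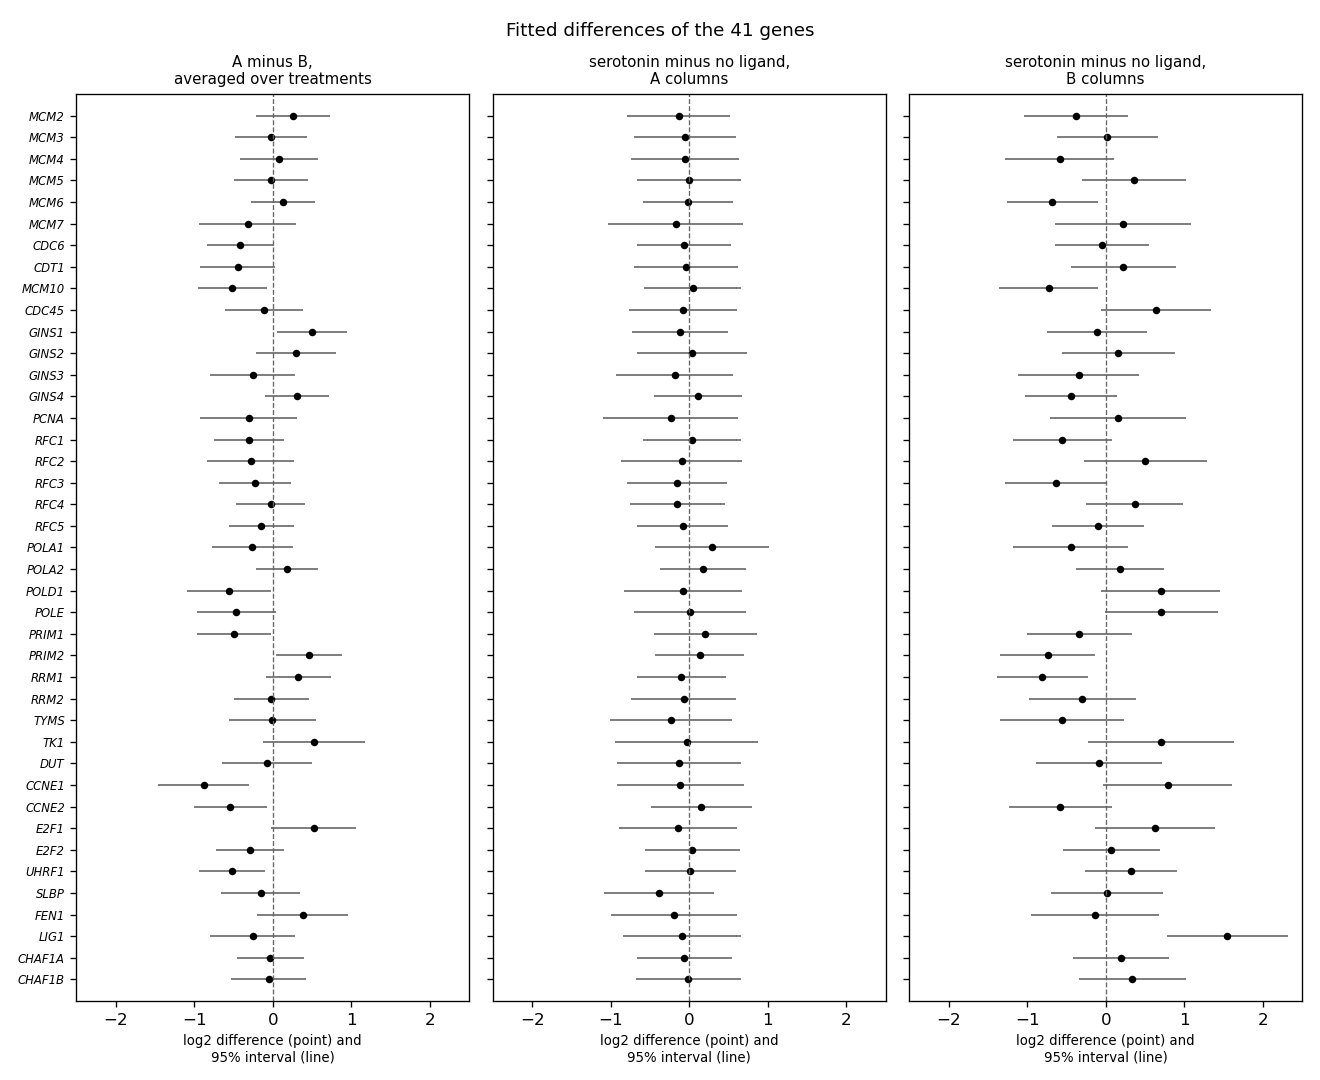
Points are log2 differences of the 41 genes with 95% intervals, for A minus B (left) and for serotonin minus no ligand within A (middle) and within B (right). Intervals within A all cover 0; within B the points scatter further, from -0.81 for RRM1 to 1.55 for LIG1.

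The spread between columns differed by letter. The ratio of the highest to the lowest of the 4 A columns had a median of 1.24 over the 41 genes (range 1.02 to 1.72), and 37 genes stayed within 1.5-fold. In the 4 B columns the median ratio was 1.87 (range 1.24 to 4.67, the last LIG1), and 9 genes stayed within 1.5-fold. The SD of log2 CPM was larger in B than in A for 41 of 41 genes, as it was for 89.3% of all genes. Summed over the 41 genes, the A columns held 3348 to 3945 CPM and the B columns 3346 (Control_B) to 4704 (Serotonin_B (R)).
Columns of the same letter and treatment differed from each other. Between Control_B and Control_B (R), 16 of 41 genes (39.0%) differed by more than 1.5-fold, as did 52.8% of all genes. Between Serotonin_B (R) and Serotonin_B there were 6 (14.6%), against 31.3% of all genes. Between Serotonin_A (R) and Serotonin_A there were 3 (7.32%), against 23.2%. None of the 41 differed so much between Control_A (R) and Control_A, where 9.29% of all genes did.
These differences went with the GC content of the transcript, which spanned 36.9 to 65.0% over the 41 genes. Across the 41 genes, the correlation of the log2 ratio with GC content was 0.61 for Serotonin_B (R) over Serotonin_B and -0.67 for Serotonin_A (R) over Serotonin_A. It was -0.33 for Control_B over Control_B (R) and -0.16 for Control_A (R) over Control_A. These are correlations across genes, which share their libraries and are not replicates. All genes tested gave 0.37, -0.36, -0.26 and 0.07 in the same order. Thus GC-rich members such as POLD1 (65.0% GC) read higher in Serotonin_B (R) than in Serotonin_B, and lower in Serotonin_A (R) than in Serotonin_A. With the GC trend taken out, 12.9% of all genes were called between the letters averaged over treatments, 1081 higher and 1136 lower in A. Of the 41, 3 were called, all lower in A: CCNE1 (-0.92, adjusted p = 0.0221), POLD1 (-0.65, adjusted p = 0.0226) and UHRF1 (-0.58, adjusted p = 0.0322). The differences of MCM7 (-0.37), MCM10 (-0.53), PCNA (-0.34), TK1 (0.47) and FEN1 (0.34) kept their sign in that fit and their side of the threshold.

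**Figure D4:**
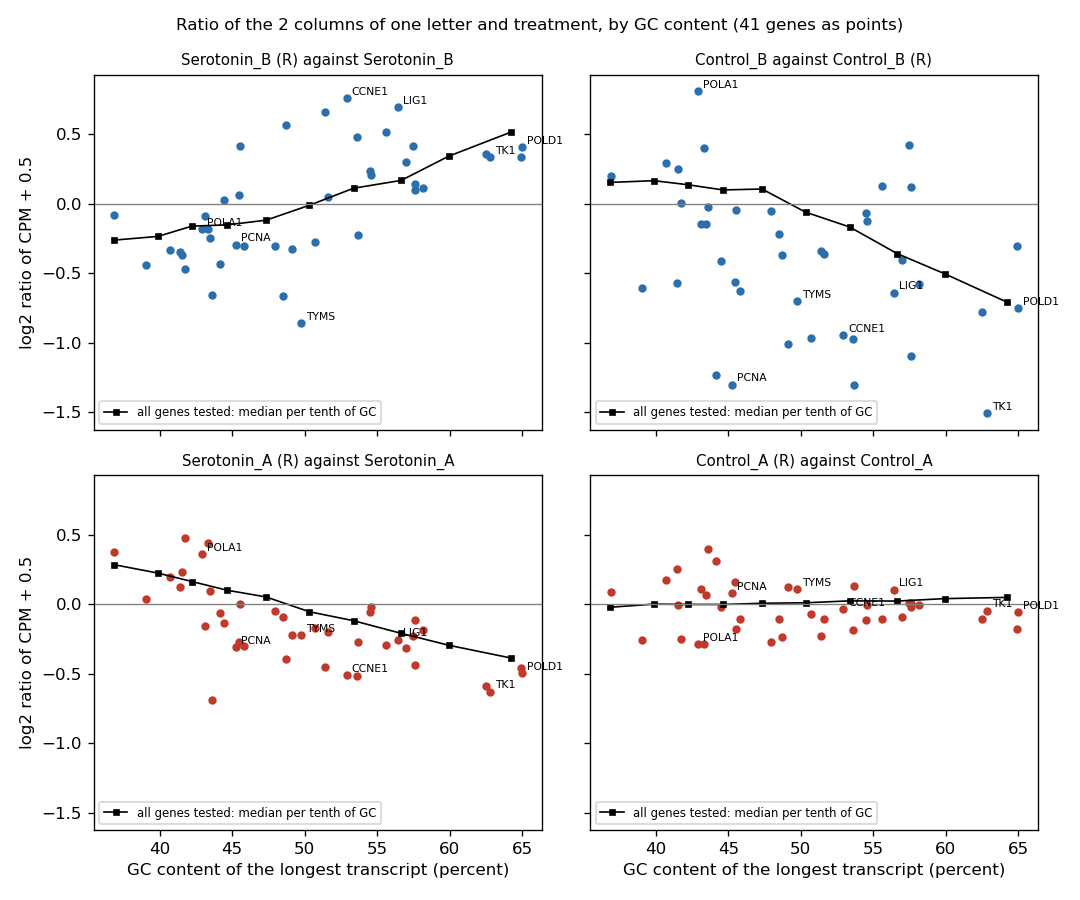
Each panel sets 2 columns of the same letter and treatment against each other: points are the 41 genes, the x axis is the percent GC of the longest transcript, the y axis the log2 ratio of CPM + 0.5. The black line, the median of all genes in 10 equal classes of GC content, climbs for Serotonin_B (R) over Serotonin_B, descends in Control_B over Control_B (R) and Serotonin_A (R) over Serotonin_A, and is nearly flat for Control_A (R) over Control_A.

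Without Control_B and Serotonin_B (R), the columns with the most mitochondrial counts, 6 of the 41 genes were called lower in A and 0 higher, against 19.3% of all genes in either direction. They were CCNE1, UHRF1, POLD1, PCNA, RFC3 and MCM7, with log2 differences of -0.86, -0.51, -0.62, -0.64, -0.47 and -0.52. In that fit the serotonin columns of B, and the no-ligand columns of B, were each a single column, whose spread was taken from the other columns. The shares of all genes given here count both directions, so they are not the background for calls in a single direction. Without Control_B alone, 4 were called, CCNE1, PCNA, POLD1 and UHRF1, all lower in A, against 16.4% of all genes. Without Control_B (R) instead, 6 members were also called in the averaged comparison, E2F1, FEN1, GINS1, GINS2, TK1 and MCM10, of which MCM10 alone had a negative difference, against 19.1% of all genes. None of these was among the 4. Within B, 8 of the 41 were then called for serotonin, against the single Control_B library, as were 26.3% of all genes. The choice between the 2 no-ligand B columns therefore changed which replication genes were called in this comparison. It also changed the sign for PCNA and MCM7, among the genes whose sign was followed. The median log2 difference of the 41 genes was -0.22 without Control_B and 0.07 without Control_B (R), beside -0.01 and 0.10 for all genes.

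Few genes of the lists beside these 41 passed. Of 45 further replication genes, 0 passed in the averaged A minus B comparison, with 9 at an unadjusted p under 0.05 and a median of -0.12. In the serotonin columns 1 passed, RECQL4, a helicase of origin firing. It had 283 CPM in Serotonin_A and 188.5 in Serotonin_A (R), against 558 in Serotonin_B and 1462 in Serotonin_B (R), a log2 difference of -2.10 (SE 0.53, adjusted p = 0.0460). Its B value thus differed widely between columns of the same letter and treatment.
Of 20 mitotic genes 1 passed in the averaged comparison, UBE2C, which gives the anaphase-promoting complex its ubiquitin. It had 73.3 to 109 CPM in A and 20.2, 45.2, 51.4 and 80.4 CPM in B, a difference of 1.01 (SE 0.27, adjusted p = 0.0402) and the 20 genes had a median of -0.01. Of 8 CDK inhibitors and D cyclins, CCND2 (cyclin D2), a G1 cyclin, passed. It had 34.2, 31.7, 34.7 and 35.9 CPM in A and 165, 91.8, 93.9 and 69.0 CPM in B, a difference of -1.58 (SE 0.23, adjusted p = 0.00185). All A columns lay below all B columns for CCND2, which none of the cyclin E genes did. In each comparison at most 1 gene of each of these 3 lists passed.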

How the data were processed

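PolyA RNA of 8 HEK293 samples was sequenced from stranded libraries. The authors deposited counts per gene, made with featureCounts 2.0.1 in reverse-stranded, paired mode on GENCODE 28, per the file headers; the submitters' processing notes name hg38, cutadapt 3.4, STAR 2.7.8a and SAMtools 1.12, with Bowtie2 named without a version. Exon lengths were those of the deposited table.

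Counts were analysed here with edgeR 4.0.16 (R 4.3.3): TMM scaling, filterByExpr (17144 of 58440 genes kept), 1 mean for each letter and treatment, a quasi-likelihood test, and Benjamini-Hochberg adjustment with a threshold of 0.05. CPM values were computed from the deposited counts and the TMM factors. Intervals are 95% intervals of the fit, which shared 1 spread per gene between letters and treatments. GC content was taken from GENCODE 29 transcripts. The procedure was tested on simulated data. Depth was 2604885 to 9072278 counts per column.

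The treatment word of a column name placed it with the no-ligand or the serotonin samples, 4 each. The letter is used only as part of the name: the HTR1E counts did not place any column. Whether columns pair across names was checked from their deviations from the cell means, with correlations of 0.00 and 0.15 between treatments and 0.09 and -0.28 between letters, so no pairing was used. Pairs of the same letter and treatment differed by more than counting noise (chi-square per degree of freedom 4.11 to 138), so none looked like a repeat deposit of the same library; this does not show separate cultures.

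The genes, lists and promoter words were chosen with earlier results of these data known. The rule for naming was any gene that passed, plus the genes of largest and smallest difference between letters in each role. Other genes given with values (CDC6, GINS1, UHRF1, LIG1, RRM1, MCM6, PRIM2 and the like, and NR4A1 and NR4A2) were picked after their values were seen. Alternatives were DESeq2 1.42.0, upper quartile scaling, no filter, each column left out, blocks by name, and only the columns compared. After the data were seen, fits without Control_B and Serotonin_B (R), with the GC trend removed, and with crossed pairs were added.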

Additional observations from a re-analysis of the deposited data

Results flagged for a closer look

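Dixon's ratio is the distance of the highest or lowest column from the nearest other column, divided by the range of the set. Of 84 sets of 4 columns of the same treatment, 6 had a ratio above its 95% critical value for 4 samples (0.829). Chance gives about 1 in 20 such sets. The sets mix columns of both letters. Among the no-ligand columns, Control_B had 17.3 CPM of GINS2, where the other 3 had 33.7 to 36.7, and 30.5 CPM of FEN1, where they had 69.8 to 76.3. Control_B also had 57.0 CPM of E2F2, above the others at 40.5 to 42.4. Mitochondrial transcripts took 54.4% of its counts, against 17.9 to 18.9% in the other no-ligand columns, and the part of this in the gene values was not tested. Control_B (R) had 73.7 CPM of CCNE1, where the other 3 no-ligand columns had 38.0 to 42.9. Among the serotonin columns, Serotonin_B (R) had 106 CPM of MCM4, where the other 3 had 169 to 181. All 6 flags fell on B columns.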

How the results depend on the processing

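Counts of genes called are small in the main serotonin fits and moved widely. Averaged over letters, serotonin called 1 gene, and 12 under DESeq2, 227 with no filter, 7 without Control_B and Serotonin_B (R) and 0 with the GC trend removed. Within B it called 2 genes, and 1443 under DESeq2, 1830 with no filter, 9 with only the columns compared, 84 without the 2 columns and 1 with GC removed; 1 member, LIG1, was called under DESeq2 and with no filter. The difference between the letters' responses gave 0 genes, and 70 under DESeq2, 570 with no filter and 7 without the 2 columns.

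Between the letters without ligand, 415 genes were called, and 759 under DESeq2, 1117 with no filter, 15 with only the columns compared and 1542 without the 2 columns, where 2 members were called. With serotonin 900 genes were called, and 1426 under DESeq2 (3 members), 1985 with no filter (1 member), 2312 with only the columns compared (3 members) and 1850 without the 2 columns (2 members); upper quartile scaling and GC removal each called 1 member. Averaged over treatments 1604 genes were called, and 3529 without the 2 columns (6 members); DESeq2, upper quartile scaling and no filter each called 1 member and GC removal 3.

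The check of the names did not settle whether the columns pair, and the main fits used no pairing. With a replicate block by the rest of the name, serotonin called 27 genes averaged over letters and 2218 within B, with 1 member, LIG1; no other member was called with it, nor with the replicate block by the R suffix between letters (453, 767 and 1314 genes). With crossed serotonin pairs as the replicate block, 751 genes were called without ligand, 1754 with serotonin (2 members) and 2050 averaged (1 member).

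Leaving out 1 column at a time gave 0 to 1650 genes (0 to 2 members) for serotonin averaged over letters, 0 and 0 within A, 0 to 4846 (0 to 8) within B, and 0 to 3482 (0 to 5) for the difference of responses. Between letters it gave 60 to 3693 (0 to 6) without ligand, 83 to 3347 (0 to 6) with serotonin and 514 to 3520 (0 to 6) averaged. The highest value came without Control_B (R) in each comparison but that within A and the members with serotonin (without Control_B). The difference between letters ranged from -0.58 (without Control_B) to 0.027 (without Control_B (R)) for MCM7, and from -0.59 to 0.12 for PCNA with the same columns left out, so both reversed without Control_B (R). The cause was not tested. Fits that leave 1 column in a cell assume that it varies like the others.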
